A study of Rattus norvegicus with 22 samples.

Results

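The 10 genes described here, Dbp, Tef, Hlf, Per1, Per2, Per3, Nr1d1, Nr1d2, Arntl and Ciart, are feedback and output genes of the circadian clock. They were taken by symbol from the table of read counts per gene in rat spinal cord, which lists 32883 genes. All 10 were found, and all 10 passed the filter on low counts in every comparison. RNA was sequenced from the ventral part of the cervical cord, segments C3 to C6, of 5 intact males, 5 gonadectomized (GDX, castrated) males, 6 intact females and 6 ovariectomized (OVX) females, with 1 library per rat. All rats were outbred Sprague-Dawley rats of 3 to 4 months, and the females were virgin. GDX and OVX rats were processed 2 weeks after bilateral removal of the gonads under isoflurane and buprenorphine. Their controls were age-matched rats with gonads, for which the methods describe no sham operation. Rats were kept on a light-dark cycle with lights on by day. Neither the hour at which each cord was taken nor the stage of the female cycle is given in the sources used here, so the part of either in any result below was not tested.

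Between 12371756 and 17571887 reads were counted per library (median 14722472). Levels are given as CPM, counts scaled to library size with TMM factors, and since they are not divided by gene length they are compared between rats and not between genes. The average input fragment size given in the study's methods falls into a long and a short class. The long class holds 3 of 5 intact males (rats 1, 3 and 6) and 4 of 6 intact females (rats 2, 3, 5 and 6), and all GDX and OVX libraries are of the short class, so class and gonadectomy are partly confounded. Motor neuron markers, 8 of 8 of them above 0 in every group, summed to between 503.0 and 992.1 CPM per library. Markers of other tissue were also present, with meninges and fibroblast markers (5 genes) at 28.0 to 221.9 CPM in sum and dorsal horn markers (6 genes) at 139.6 to 213.8 CPM. In bulk tissue, fewer cells of a type and less RNA per cell cannot be told apart, which holds for every level given below.

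The clock of mammalian cells is a feedback loop in transcription. The proteins of Arntl (also named Bmal1) and Clock bind E-box sequences and switch on Per1, Per2, Per3, the Cry genes, Nr1d1, Nr1d2, Ciart and Dbp. The PER and CRY proteins and the CIART protein then repress that activation, and the REV-ERB proteins of Nr1d1 and Nr1d2 repress Arntl through ROR elements. Dbp, Tef and Hlf encode related PAR bZIP transcription factors that act on D-boxes and carry the rhythm to output genes. Through this wiring Arntl peaks at the opposite phase of the day from Dbp, the Per genes and the REV-ERB genes in peripheral tissues and in the brain outside the master clock. Per1 is also a direct target of the glucocorticoid receptor.

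Promoter windows of 300 bases, from 250 bases before to 50 bases after the start site, were read from RefSeq on build GRCr8 for 9 of the 10 genes. Hlf had no entry. They were searched on both strands for the E-box (CACGTG), the E-prime box (CACGTT), the D-box (TTATGTAA) and the ROR element (TAGGTCA), 4 sequences with no overlap between their matches here. At least 1 of these was found for 5 of the 9 genes, Tef, Per2, Nr1d1, Arntl and Ciart, and these letters did not occur in the windows of Dbp, Per1, Per3 and Nr1d2. Over all 33469 RefSeq promoter windows the E-box occurred in 6.42%, the E-prime box in 4.83%, the D-box in 0.893% and the ROR element in 2.63%. The windows of 3 genes with different kinds of match are shown, with the matches in capitals. The Per2 window lies at chr9:99496944-99497243 on the minus strand and holds a D-box starting 192 bases and an E-prime box starting 62 bases before the start site. The Ciart window, at chr2:186112197-186112496 on the minus strand, holds 3 E-boxes starting 93, 35 and 21 bases before the start site. The Arntl window, at chr1:176766078-176766377 on the plus strand, holds a ROR element starting 16 bases before the start site.
Per2: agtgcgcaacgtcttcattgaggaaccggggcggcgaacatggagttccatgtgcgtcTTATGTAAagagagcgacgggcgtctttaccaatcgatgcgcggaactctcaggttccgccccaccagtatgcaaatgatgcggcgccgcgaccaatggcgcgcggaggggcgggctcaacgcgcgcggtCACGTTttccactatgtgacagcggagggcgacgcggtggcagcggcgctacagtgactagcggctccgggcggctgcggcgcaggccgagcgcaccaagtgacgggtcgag
Ciart: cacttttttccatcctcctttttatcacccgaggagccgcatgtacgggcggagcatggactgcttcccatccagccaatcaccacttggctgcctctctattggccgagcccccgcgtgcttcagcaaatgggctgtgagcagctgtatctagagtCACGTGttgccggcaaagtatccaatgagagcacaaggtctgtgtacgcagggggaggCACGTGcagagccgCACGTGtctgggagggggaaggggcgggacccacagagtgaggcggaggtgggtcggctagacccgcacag
Arntl: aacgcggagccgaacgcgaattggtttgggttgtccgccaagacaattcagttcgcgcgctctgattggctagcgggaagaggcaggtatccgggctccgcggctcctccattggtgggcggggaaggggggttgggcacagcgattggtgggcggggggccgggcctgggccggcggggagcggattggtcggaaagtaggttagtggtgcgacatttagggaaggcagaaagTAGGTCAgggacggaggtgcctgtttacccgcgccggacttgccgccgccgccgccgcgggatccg
The Tef window held an E-box starting 198 bases before its start site. Of 2 windows of Nr1d1, 1 held an E-prime box at 174 bases and the other an E-box at 191 bases. A match of letters is a description of the sequence and was not tested as a binding site.

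Most of the calls on these genes came from intact males against intact females, which shows the sex difference with gonads present. Of the 10 genes, 8 were lower in intact males than in intact females (Dbp, Tef, Per1, Per2, Per3, Nr1d1, Nr1d2 and Ciart), and Arntl was higher, each with an adjusted p below 0.1 by the quasi-likelihood test of edgeR. Hlf was not called (log2 fold change -0.06 ± 0.14 SE). Over all genes tested, 4.01% were called in this comparison. The median log2 fold change was -0.38 over the 10 genes and 0.0028 over all genes. The levels of 6 of the 10 genes did not overlap between intact males and intact females, against 2.73% of all genes.

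Dbp, a PAR bZIP factor with a wide daily swing in many tissues, stood at 31.5, 35.2, 35.3, 37.6 and 42.3 CPM in the 5 intact males. In the 6 intact females it ranged from 52.6 to 76.5 CPM with a median of 58.3. Every intact female was above every intact male, also within the short-fragment libraries, where the males were at 35.2 and 35.3 CPM and the females at 52.6 and 55.1 CPM. The level was 1.65-fold lower in males (log2 fold change -0.72 ± 0.09 SE, edgeR adjusted p = 0.000668, rank 16 of 14937 genes by p). Tef, its relative, was at 67.3, 72.0, 75.0, 75.4 and 77.5 CPM in intact males and between 77.8 and 90.2 CPM (median 85.4) in intact females. These groups also lay apart, by a narrow gap, with a log2 change of -0.21 ± 0.05 SE (adjusted p = 0.0277). Hlf, the third PAR bZIP gene and among the lowest in counts, was at 4.68 to 7.62 CPM in intact males and 5.75 to 8.14 CPM in intact females, which overlapped.

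The Period genes, whose proteins repress the E-box activators, were each lower in intact males. The levels of Per3 were 45.6, 47.2, 50.4, 50.5 and 55.2 CPM in intact males and 58.4 to 72.6 CPM (median 67.1) in intact females. The groups did not overlap, and the log2 fold change was -0.41 ± 0.06 SE (adjusted p = 0.00218). Per2 was at 15.2, 15.6, 18.9, 19.0 and 19.2 CPM in intact males and at 18.6 to 27.4 CPM (median 24.98) in intact females. Its groups overlapped through female rat 1 (18.6 CPM), and its log2 fold change was -0.43 ± 0.11 SE (adjusted p = 0.0435). Without intact male 6 the adjusted p of Per2 was 0.104. In the short-fragment libraries Per2 was at 19.2 and 18.9 CPM in males 2 and 5 and at 18.6 and 20.1 CPM in females 1 and 4, with a log2 change of -0.02 (adjusted p = 0.963), and the 4 long-fragment females were at 24.6 to 27.4 CPM. Per1 was at 18.3, 20.5, 21.1, 23.0 and 23.7 CPM in intact males and at 23.1 to 49.6 CPM (median 40.4) in intact females. The females fell into a pair at 23.1 and 23.6 CPM, rats 4 and 1, both of the short-fragment class, and 4 rats at 36.1 to 49.6 CPM, all of the long class. The log2 change of Per1 was -0.81 ± 0.18 SE (adjusted p = 0.0291) over all intact rats and 0.0015 over the short-fragment libraries (adjusted p = 0.997), where males 2 and 5 were at 23.0 and 23.7 CPM beside the 2 females at 23.1 and 23.6 CPM.

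The repressors of the second loop were lower in intact males as well. Nr1d1, which encodes REV-ERB alpha, was at 25.8, 27.6, 30.4, 31.9 and 34.5 CPM in intact males and at 36.1 to 41.8 CPM (median 37.7) in intact females, a log2 change of -0.36 ± 0.07 SE (adjusted p = 0.0158). Nr1d1 overlaps Thra on the other strand, and the strand setting of the counting is not given in the sources used here, so reads of that pair cannot be told apart further. Nr1d2, which encodes REV-ERB beta, was at 52.5, 55.5, 59.8, 62.8 and 65.9 CPM in intact males and at 67.8 to 88.5 CPM (median 74.5) in intact females, a log2 change of -0.34 ± 0.07 SE (adjusted p = 0.0216). Neither gene overlapped between the groups. Ciart, a repressor of the E-box activators, was at 5.53 to 7.47 CPM in intact males and 7.08 to 10.01 CPM in intact females, with a log2 change of -0.42 ± 0.12 SE (adjusted p = 0.0687). The call on Ciart held in 4 of 11 fits that each left out 1 rat. It was lost without intact males 1, 2, 5 or 6 or intact females 2, 4 or 5, with adjusted p between 0.115 and 0.152.

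Arntl, the activator of the loop, moved the other way. It was at 22.5, 25.2, 25.3, 26.8 and 27.1 CPM in intact males and at 13.8 to 21.3 CPM (median 18.8) in intact females. Every intact male was above every intact female, with a log2 change of 0.48 ± 0.09 SE (adjusted p = 0.0150).

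**Figure D1:**
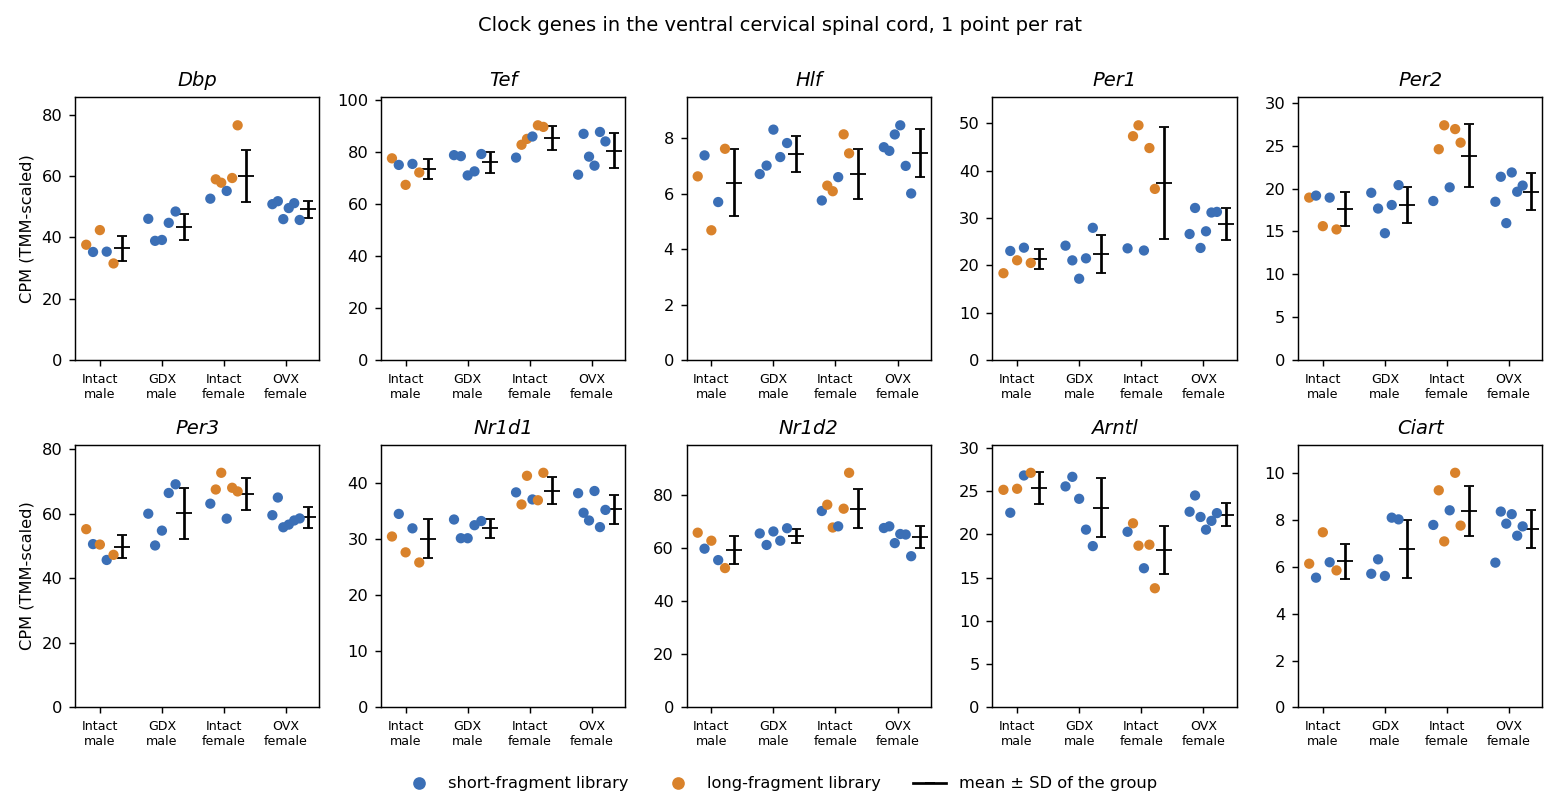
Level of each of the 10 genes in CPM (vertical axes, TMM-scaled, starting at 0) in the 4 groups, with 1 point per rat, coloured by fragment class, and the mean ± SD of the group beside the points. Dbp runs from 31.5 to 42.3 CPM in intact males and from 52.6 to 76.5 CPM in intact females, Arntl is the 1 gene with its intact males above its intact females, and Per1 in intact females splits between short and long libraries.

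Other values moved with the same comparison. Fragment class was spread over both sexes, and with it as a term the same count of 9 of the 10 genes was called. Over the short-fragment libraries alone, 2 males against 2 females, only Dbp was called (log2 fold change -0.61, adjusted p = 0.0351), and the median of the 10 genes was -0.15. The meninges and fibroblast markers were lower in intact males, with a summed level of 28.0 to 80.0 CPM against 60.9 to 182.7 CPM in intact females, none of the 5 at 0, and 2 of 4 tested genes called lower, Dcn and Slc6a13. The Schwann cell and root markers Prx and Pmp22 were called lower in intact males too. Of 5 tested endothelial markers 1 was called lower, Cdh5, at 6.83 to 10.4 CPM in intact males and 12.2 to 24.8 CPM in intact females (log2 fold change -1.13 ± 0.16 SE). With the mean of the meninges and fibroblast markers as a term, 0 of the 10 genes were called by edgeR, where 18 of 14937 genes were called in all. The log2 fold change then stood at -0.42 for Dbp (adjusted p = 0.475) and 0.08 for Arntl (adjusted p = 0.908). In that fit the marker level and the sex of the rat are partly confounded.

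Between rats without gonads, none of the 10 genes was called. GDX males and OVX females differed at an unadjusted p under 0.05 in 3 of the 10 genes, all lower in males, against 9.37% of all genes, and DESeq2 called 0 of them. Over all genes 0.232% were called by edgeR. Dbp was at 38.8, 39.1, 44.7, 46.0 and 48.4 CPM in GDX males and at 45.6 to 51.7 CPM (median 50.1) in OVX females, which overlapped (log2 fold change -0.18 ± 0.06 SE, adjusted p = 0.369). Per1 had a log2 change of -0.36 ± 0.11 SE (adjusted p = 0.319) and Nr1d1 of -0.15 ± 0.06 SE (adjusted p = 0.423). Arntl, with 18.6, 20.6, 24.1, 25.5 and 26.7 CPM in GDX males and 20.5 to 24.5 CPM in OVX females, had a log2 change of 0.06 with a 95% interval of -0.11 to 0.22. No gene of the 10 had groups apart, against 1.32% of all genes. All of these libraries are of the short class.

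In males, 2 of the 10 genes were called higher after castration, against a background of 13.4% of all genes called. Dbp had a log2 change of 0.25 ± 0.08 SE (adjusted p = 0.0713), from a mean of 36.4 ± 3.99 CPM (SD, n = 5) in intact males to 43.4 ± 4.26 CPM (SD, n = 5) in GDX males, tested by edgeR. Per3 was at 50.1, 54.7, 59.9, 66.4 and 69.1 CPM in GDX males, with a log2 change of 0.27 ± 0.08 SE (adjusted p = 0.0628). Both overlapped between GDX and intact males. The other 8 genes were between -0.14 (Arntl) and 0.21 (Hlf) on the log2 scale and were not called. A share of 2 in 10 is close to the background of this comparison. The call on Dbp held in 3 of 10 fits that left out 1 rat (without GDX male 2 or 4 or intact male 3) and that on Per3 in 5 of 10 (without GDX male 1, 2 or 4 or intact male 1 or 3), with adjusted p up to 0.165 in the others. Both calls were also lost, at folds as large, with fragment class as a term (Dbp 0.30, adjusted p = 0.166, and Per3 0.32, adjusted p = 0.149) and over short libraries (0.30 and 0.32). With RIN, the score of RNA integrity, as a term they stood at 0.24 and 0.20 and were not called. All 4 tested meninges and fibroblast markers were called higher after castration, among them Col1a1 (log2 fold change 1.81 ± 0.35 SE). With their level as a term the log2 fold change was 0.01 for Dbp and -0.04 for Per3, and 1 gene was called in all. In that fit the marker level and castration are partly confounded.

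In females, none of the 10 genes was called after ovariectomy by edgeR, and 0.0335% of all genes were. At an unadjusted p under 0.05 there were 7 of the 10, against 10.2% of all genes. In the same comparison 7 of 8 motor neuron markers (median -0.35) and 5 of 5 tested endothelial markers (0.49) had an unadjusted p under 0.05. So did the 4 tested erythroid rows (0.87), and edgeR called none of these markers. Their part in the result was not tested. DESeq2 called 2, Dbp (adjusted p = 0.0361) and Nr1d2 (adjusted p = 0.0715). Dbp was at 45.6 to 51.7 CPM in OVX females and 52.6 to 76.5 CPM in intact females. It was the 1 gene of the 10 with groups apart, against 0.516% of all genes (log2 fold change -0.29 ± 0.07 SE, edgeR adjusted p = 0.185). Without intact female 1, whose Dbp level was the lowest of its group, the edgeR adjusted p was 0.0742. All OVX libraries are short, and with fragment class as a term the log2 fold change was -0.13 for Dbp (adjusted p = 0.800) and -0.05 for Per3, against -0.17 for Per3 without it. Over the short libraries alone Dbp was at -0.14 (adjusted p = 0.817). Arntl had a log2 change of 0.29 ± 0.09 SE (adjusted p = 0.257), Nr1d2 of -0.22 ± 0.06 SE (adjusted p = 0.233) and Per1 of -0.38 ± 0.17 SE (adjusted p = 0.445). Within the short-fragment libraries the 2 intact females had Per1 at 23.1 and 23.6 CPM and the 6 OVX females at 23.7 to 32.1 CPM, and the log2 fold change turned to 0.29 (adjusted p = 0.731). Per2 stood at 0.02 in the same libraries, against -0.28 in all.

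The difference between the male and the female response was tested as the interaction of sex and gonadectomy over all 22 rats. It was called for Dbp alone, at a log2 difference of 0.54 ± 0.12 SE (edgeR adjusted p = 0.0973), against 0.116% of all genes called. The difference was positive for 9 of the 10 genes, with Per3 at 0.44 ± 0.10 SE (adjusted p = 0.128), Nr1d2 at 0.35 ± 0.09 SE (adjusted p = 0.144) and Arntl negative at -0.43 ± 0.13 SE (adjusted p = 0.180). The 4 groups in this test are those of the comparisons above, so it is not a separate set of samples. The call on Dbp held in 6 of 22 fits that left out 1 rat, those without GDX male 1 or 2, intact male 3, intact female 1 or 2 or OVX female 1, and had an adjusted p of at most 0.217 in the others. DESeq2 called 3 genes, Dbp (adjusted p = 0.00627), Per3 and Nr1d2. The edgeR call on Dbp was lost with fragment class (adjusted p = 0.113) or RIN (0.113) as a term, with a replicate block (0.172) and over short libraries (log2 difference 0.43, adjusted p = 0.406). Of 5 meninges and fibroblast markers 4 had an unadjusted p under 0.05 for the interaction (median 1.30), against 11.6% of all genes, and 0 were called. With the level of these markers as a term Dbp stood at 0.34 (adjusted p = 0.733), in a fit where the marker level and the interaction are partly confounded.

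**Figure D2:**
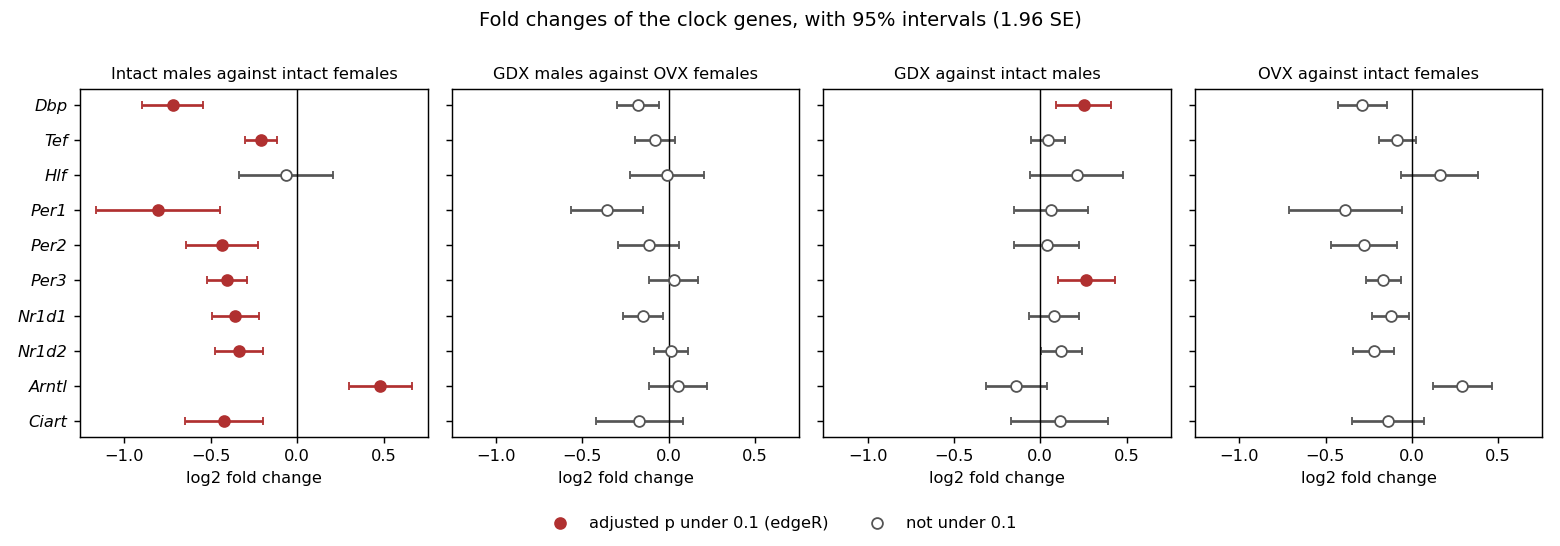
Log2 fold change (horizontal axes) of each of the 10 genes in 4 comparisons, with 95% normal intervals from the SE, narrower than the test implies. Points are filled where the edgeR adjusted p was under 0.1. In intact males against intact females 9 genes are filled, 8 to the left of 0 and Arntl to the right, and in GDX males against OVX females none is.

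Beyond the 10 genes, 9 core clock loop genes were tested. In intact males against intact females 2 of the 9 were called, where 4.01% of all genes were. Npas2 was higher (log2 fold change 0.26 ± 0.08 SE, adjusted p = 0.0953) and Bhlhe40 lower (-0.21 ± 0.06 SE, adjusted p = 0.0596). Npas2 encodes a partner of ARNTL that can stand in for CLOCK, and Bhlhe40 encodes a repressor that binds E-boxes. Clock, at 76.4 to 84.5 CPM in intact males and 70.4 to 77.9 CPM in intact females, had a log2 change of 0.10 (adjusted p = 0.215). The repressor gene Cry1 had one of 0.11 (adjusted p = 0.639). After castration Bhlhe41, a relative of Bhlhe40, was called higher (0.22 ± 0.06 SE) and Npas2 (-0.36 ± 0.10 SE) and Cry2 (-0.15 ± 0.04 SE) were called lower, 3 of the 9, where 13.4% of all genes were called. None of the 9 was called after ovariectomy, where 1 had an unadjusted p under 0.05, against 10.2% of all genes. In intact males against intact females 5 of the 9 had an unadjusted p under 0.05 by edgeR, against 15.5% of all genes. After castration 4 of the 9 had, against 23.8% of all genes. The median over the 9 was -0.09 in intact males against intact females, against -0.38 for the 10 genes. That median takes in genes higher and genes lower in males, so it does not give the size of their differences.

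Of 8 clock protein modifiers, all tested, 1 was called in any comparison, the kinase gene Gsk3b after castration (log2 fold change -0.12 ± 0.04 SE, adjusted p = 0.0938). There 13.4% of all genes were called. Of 8 clock-controlled outputs 4 were tested (Usp2, Wee1, Nampt and Pim3), and edgeR called none in any of the 6 comparisons. In each of 4 comparisons 1 of the 4 had an unadjusted p under 0.05, against 9.37% to 23.8% of all genes. Among these, Usp2, a deubiquitinase gene driven by E-boxes, was at 3.85 to 6.64 CPM in intact males and 5.58 to 9.01 CPM in intact females (log2 fold change -0.32 ± 0.16 SE, adjusted p = 0.357). Wee1, a cell cycle kinase gene, had a log2 change of -0.21 ± 0.10 SE there (adjusted p = 0.303). Of 7 temperature-responsive genes, among them the cold-shock genes Cirbp and Rbm3, all 7 were tested in the interaction and 6 in each other comparison. None of those tested was called, and none had an unadjusted p under 0.05. Among 7 tested immediate early genes, Dusp1 was called lower in intact males than in intact females (-0.67 ± 0.18 SE), where 4.01% of all genes were called. Egr1 was called higher after castration (0.42 ± 0.14 SE), where 13.4% were.

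Variation between rats of the same group was then measured as the SD of the deviations of log2 CPM from the 4 group means. It was widest for Per1, at 0.31, above 98.6% of the 2526 genes within 0.5 log2 units of its level. The SD of Per1 was 11.8 CPM in intact females and 2.15, 3.99 and 3.36 CPM in intact males, GDX males and OVX females. Intact females split by fragment class, at 23.1 and 23.6 CPM in short and 36.1 to 49.6 CPM in long libraries. The part of the class in this spread was not tested. Dbp (SD 0.15) was above 91.6% of the genes near its own level, Per2 (SD 0.19) above 90.4% and Arntl (SD 0.17) above 88.2%. Ciart was above 40.7% and Hlf above 43.9% of the genes counted at their depth. Over all genes tested the median SD was 0.15. Among all genes, without regard to level, the median percentile of the 10 was 51.8.

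Whether the 10 genes moved together between rats was examined on these deviations, over 22 rats and 45 pairs. Among 36 pairs without Arntl, 31 had a positive Pearson r, with a median of 0.21 and a range from -0.25 (Nr1d1 with Ciart) to 0.80 (Per1 with Per2). Among the 9 pairs with Arntl, 8 were negative, with a median of -0.30. Arntl was thus opposed in sign to most of the others. At an unadjusted p under 0.05 by 100000 permutations within groups there were 8 of 36 and 2 of 9 pairs. In edgeR fits with each gene in turn as a term beside the 4 group means, 3.77% (Dbp) to 14.1% (Per2) of all genes had an unadjusted p under 0.05, and between 48.8% and 53.0% of all genes had a positive r with the gene. With an adjusted p, 2 of 90 ordered pairs were called, Per2 on Per1 and Per1 on Per2, against 0.027% of all genes over the 10 fits together.

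The tightest pair was Per1 with Per2 (Pearson r = 0.80, permutation p = 0.00027, Spearman rho = 0.74, permutation p = 0.00088, n = 22 rats). Without the 2 rats farthest from the median of Per1, intact females 1 and 4, r was 0.65, and it was 0.84 in the 15 short-fragment and -0.18 in the 7 long-fragment libraries. The edgeR adjusted p over all genes was 0.0215 for Per2 on Per1 and 0.0342 for Per1 on Per2, and the call on 1 of the 2 directions was lost without intact female 1, 3 or 4 or GDX male 4. Without GDX male 4, Dbp on Nr1d2 was called instead (adjusted p = 0.0656). Both directions were called with the meninges and fibroblast level or fragment class as a term, and neither over short libraries, with the glucocorticoid-responsive level as a term or with a replicate block. Dbp with Nr1d2 came next (r = 0.77, permutation p = 0.00037, rho = 0.75, permutation p = 0.00024). It held without intact male 3 and intact female 6 (r = 0.62) and in both classes (0.52 in short, 0.87 in long). Nr1d2 had the highest r with Dbp of all 15561 genes, although neither direction was called by edgeR (adjusted p = 0.168 for Dbp on Nr1d2). Dbp with Arntl was negative (r = -0.55, permutation p = 0.0304, rho = -0.38, permutation p = 0.118), at -0.35 without intact male 3 and intact female 6, and at -0.47 in short and -0.79 in long libraries. Dbp with Per3 was at r = 0.55 (permutation p = 0.0194, rho = 0.62, permutation p = 0.00898), rising to 0.76 without the same rats, with 0.75 in short and 0.09 in long libraries. Neither of these pairs was called by edgeR.

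Other pairs with an unadjusted permutation p under 0.05 for r were Tef with Per2 (r = 0.56), Tef with Per1 (0.42), Per2 with Per3 (0.55), Per2 with Nr1d1 (0.55), Per1 with Per3 (0.53) and Nr1d1 with Arntl (-0.43), none of them called by edgeR. Between Per1 and Arntl r was 0.04 (permutation p = 0.905), and between Per1 and Nr1d2 it was 0.03 (permutation p = 0.919). The fragment classes differed in these pairs. Per1 with Arntl was at -0.21 in short and 0.84 in long libraries, and Per1 with Nr1d2 at 0.10 and -0.78. Tef with Per1 was at 0.65 in short and -0.66 in long libraries. Hlf and Ciart, the 2 genes with the fewest counts, had no pair at an unadjusted p under 0.05.

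**Figure D3:**
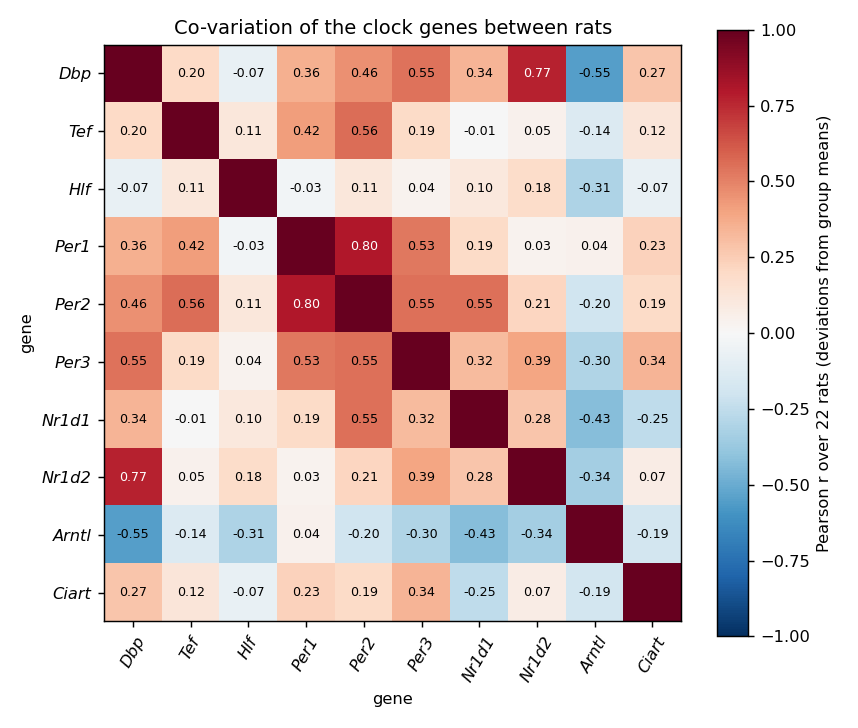
Pearson r between the deviations of 2 genes from their group means over 22 rats, for all 45 pairs of the 10 genes, from -1 (blue) to 1 (red). Per1 with Per2 (0.80) and Dbp with Nr1d2 (0.77) are the highest, and the row of Arntl is negative with 8 of 9 genes.

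The rats farthest from their group means were of several groups. The mean of the 10 standardised deviations, with Arntl turned in sign, was highest in GDX male 6 (1.01) and intact female 6 (0.97) and lowest in intact female 1 (-0.96) and GDX male 4 (-0.69). The 5 genes whose deviations were most like this mean, by Pearson r over 22 rats, were Nr5a2 (0.71), Blcap (0.70), Idnk (0.69), Wfikkn2 (0.68) and Tulp3 (0.68). The most opposed were Cmas (-0.76), Rbak (-0.74), Vamp4 (-0.74), Tnfsf13b (-0.73) and LOC100912599 (-0.71). Genes of the lists were left out of this search and of the one for Dbp, so none of them could be named. For Dbp, beside Nr1d2, the most like were AABR07008066.2 (0.75), Cstf1 (0.74), Sdf2l1 (0.71), Mrpl44 (0.70) and AABR07029198.1 (0.70), and the most opposed were Serpinb9 (-0.74), Gpatch2l (-0.74), Armcx3 (-0.72), Emcn (-0.71) and Serpinb6b (-0.68).

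Per1 moved between rats with genes that respond to glucocorticoid hormone. Of 29 genes called in the edgeR fit on Per1, 7 are among the 9 glucocorticoid-responsive genes listed, Sgk1, Zbtb16, Pdk4, Ddit4, Errfi1, Fkbp5 and Klf9, all with positive slopes, and the other 2, Tsc22d3 and Cdkn1a, were not called. Sgk1 encodes a kinase, Zbtb16 a transcription factor and Fkbp5 a co-chaperone of the receptor, all induced by the hormone. Sgk1 followed Per1 with r = 0.87 (permutation p = 4e-05, rho = 0.83, permutation p = 0.00011), at 0.66 without intact females 1 and 4, and with 0.50 in the short and 0.91 in the long libraries. Zbtb16 followed it with r = 0.89 (permutation p = 4e-05, rho = 0.85, permutation p = 0.0001), at 0.73 without the same rats, and with 0.80 in short and 0.65 in long libraries. The edgeR adjusted p was 8.47e-05 for both. With intact female 1 left out 4 of the 9 genes were called, with fragment class as a term 4, and over the short-fragment libraries alone 0. Positive r with these genes was not particular to Per1 (median 0.78). All 9 were positive with Per2 (median 0.54), Per3 (0.39) and Ciart (0.22), and 8 with Tef (0.28) and Arntl (0.22). With Hlf and Nr1d1 3 were positive, and with Nr1d2 2. Outside the fit on Per1, edgeR called none of the 9. For Dbp, r with the same 9 genes lay between -0.05 and 0.26 over all rats, and the fragment classes differed in sign. In the long libraries r with Dbp was negative for all 9 genes (-0.78 for Fkbp5, -0.58 for Zbtb16), and in the short libraries it was positive for 8 of the 9 (0.77 for Fkbp5, 0.50 for Zbtb16), the exception being Tsc22d3 (-0.30).

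**Figure D4:**
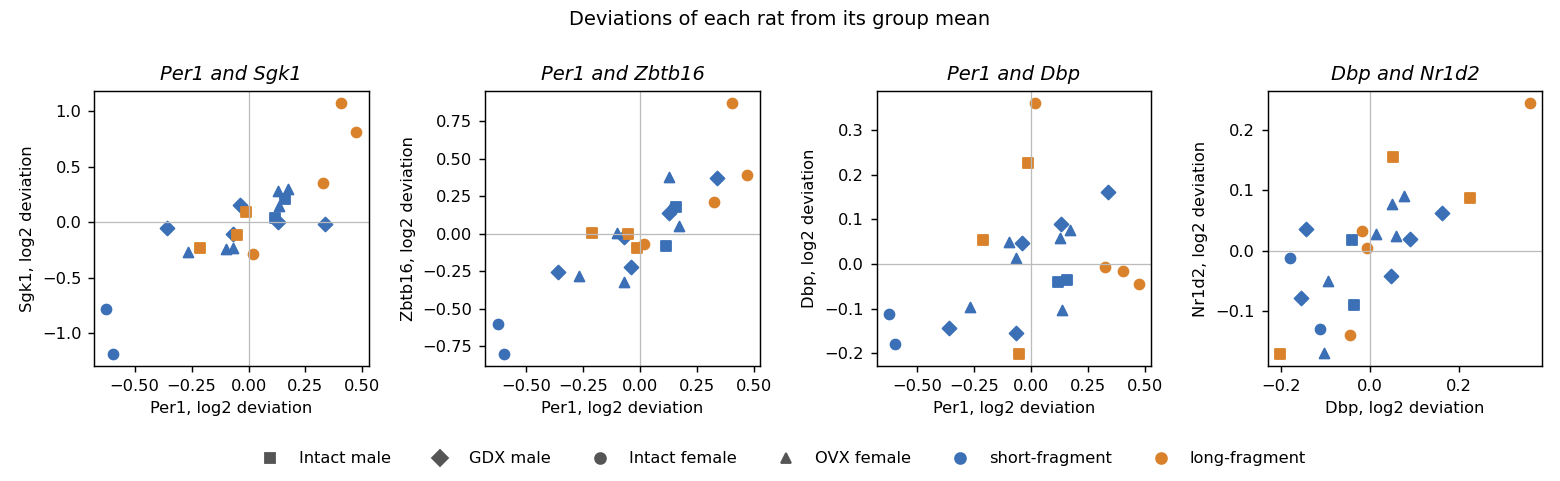
Deviation of each rat from its group mean in log2 CPM, for Per1 against Sgk1, Zbtb16 and Dbp and for Dbp against Nr1d2, with 1 point per rat, shaped by group and coloured by fragment class. Per1 runs with Sgk1 (r = 0.87) and Zbtb16 (0.89) over all rats, its r with Dbp is 0.36 over all rats, 0.69 in the short and -0.64 in the long libraries, and the 2 intact females of the short class lie at the lower left of the first panels.

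The same 9 glucocorticoid-responsive genes were compared between the groups. In intact males against intact females 4 of the 9 were called, against 4.01% of all genes, all lower in males, Sgk1 (log2 fold change -1.39 ± 0.33 SE), Zbtb16 (-0.97 ± 0.24 SE), Fkbp5 (-0.46 ± 0.12 SE) and Klf9 (-0.37 ± 0.09 SE), with a median of -0.46 over the 9. The count was 2 without intact male 1, 7 without intact female 1, 7 with all 22 rats in 1 fit, and 0 over short libraries or with the meninges and fibroblast level as a term. In GDX males against OVX females Sgk1 was called lower (-0.65 ± 0.11 SE, edgeR adjusted p = 0.0173), where 0.232% of all genes were called. There 5 of the 9 had an unadjusted p under 0.05, against 9.37% of all genes. The count of 1 called there became 2 without GDX male 2 or OVX female 3, 2 by DESeq2, with no filter or with a replicate block, 4 with the meninges and fibroblast level as a term and 0 with all 22 rats in 1 fit. After castration Pdk4, which encodes a kinase that holds back pyruvate dehydrogenase, was called higher (0.50 ± 0.13 SE, adjusted p = 0.0282), 1 of the 9 where 13.4% of all genes were called. None of the 9 was called there with fragment class, RIN, the meninges and fibroblast level or the glucocorticoid-responsive level as a term, over short libraries or with all 22 rats in 1 fit. After ovariectomy edgeR called 0, and 4 had an unadjusted p under 0.05, against 10.2% of all genes. All 4 were lower, among them Sgk1 (-0.83 ± 0.30 SE, adjusted p = 0.334). Their summed level was 261.8 to 287.2 CPM in intact males and 260.5 to 548.1 CPM in intact females, and Sgk1 alone ranged from 29.2 to 140.3 CPM among intact females. With the mean level of these genes as a term, chosen as an alternative after the data were seen, 3 of the 10 clock genes were called in intact males against intact females, Dbp (-0.69, adjusted p = 0.0237), Per3 (-0.33, adjusted p = 0.0609) and Arntl (0.57, adjusted p = 0.0575). Per1 stood at -0.18 (adjusted p = 0.502) in that fit. The level of these genes and the sex of the rat are partly confounded there, with 8 of the 9 at an unadjusted p under 0.05 between intact males and females. The level also moved with Per1 between rats (median r 0.78), so the cause of the smaller Per1 difference was not tested. In intact rats the long class was above the short class in 6 of the 9 genes at an unadjusted p under 0.05 (median 0.38), with 0 called by edgeR and 2 by DESeq2. All 8 motor neuron markers were also higher in the long class at an unadjusted p under 0.05 (median 0.39), 0 called. Of 4 tested dorsal horn markers (median -0.30) 2 had an unadjusted p under 0.05, and 1 was called lower in the long class. Over 22 rats 7 of the 8 motor neuron markers had a positive r with Per1 (median 0.35). So had 4 of 5 endothelial (0.37) and 6 of 6 astrocyte markers (0.27). Positive too were 1 of 6 microglia (-0.29), 0 of 5 meninges and fibroblast (-0.18) and 0 of 3 erythroid markers (-0.36). The part of these markers in the result was not tested. Of the 10 clock genes 2 had an unadjusted p under 0.05 between the classes, against 7.71% of all genes, Per1 (0.39 ± 0.17 SE, adjusted p = 0.598) and Per3 (0.13 ± 0.05 SE, adjusted p = 0.562). None of the 10 was called by edgeR or DESeq2, and edgeR called 0.00669% of all genes. Without intact female 1 or 4 the difference in Per1 was 0.23 or 0.24, and with no filter on low counts Per1 was called (adjusted p = 0.0907).

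Of 9 genes called in the edgeR fit on Arntl, 8 had negative slopes, among them Dpt, Col3a1, Fbn1, Cyp26b1, Igfbp5, Fndc1 and Sfrp4, named after their values were seen. Dpt, Col3a1 and Fbn1 encode matrix proteins of fibroblasts. Over the 5 tested meninges and fibroblast markers the median r with Arntl was -0.58 and all 5 were negative, while with Dbp the median was 0.34 and all 5 were positive. The 3 tested erythroid markers were also all negative with Arntl (median r -0.37), and so were the Schwann cell and root markers Prx and Pmp22. Nr1d1 (median 0.34) and Nr1d2 (0.30) were positive with all 5 as well, so that these markers moved with both members of the pairs of Dbp, Nr1d1 and Nr1d2 with each other or with Arntl, and their part in those pairs was not tested.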

How the data were processed

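The values used are deposited counts, whole numbers of reads per gene that the authors had not normalized, for 22 libraries, and 0 columns were left unmapped to a rat. According to the methods, reads of stranded total RNA libraries were trimmed with Trimmomatic, mapped with Hisat2 and counted with Subread featureCounts on Rnor_6.0. The submitters' processing notes name TopHat2 2.0.13 and edgeR. Strand, multi-mapping and overlap settings are not given in the sources used here.

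The 10 genes, the gene lists and the comparisons were chosen with earlier results of these data known. Groups follow the sample labels. Fits used R 4.3.3 and edgeR 4.0.16 (filterByExpr, TMM, glmQLFit, glmQLFTest), with Benjamini-Hochberg adjustment over all genes tested and calls at an adjusted p under 0.1. Log2 CPM had a prior count of 2. Intervals are 95% normal intervals from the SE and are narrower than the edgeR test with these few rats implies. In GDX against intact males Nr1d2 had an interval of 0.003 to 0.241 beside an unadjusted edgeR p of 0.063. For co-variation, 1 member at a time was a term beside the 4 group means. Correlations used deviations from group means, with 100000 two-sided permutations within groups (numpy 2.4.6, scipy 1.17.1). Each rat is 1 animal. Named are the 10 members and listed genes past the threshold. Also named are the 5 genes outside the lists most like and most opposed to the members together and to Dbp.

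Also run were DESeq2 1.42.0, scaling by RLE factors, a fit with no filter on low counts, fragment class, RIN or the meninges and fibroblast level as a term, short-fragment libraries only, all 22 rats in 1 fit, a prior count of 0.5 and limma-trend (limma 3.58.1) for slopes, a replicate block for the rat number, and fits leaving out 1 rat each. The glucocorticoid-responsive level as a term was added after seeing the data. The pipeline was tested on simulated data. Reads carry no molecular identifiers here. With 1 library per rat, p-values cover the spread between libraries, in which the rat and the preparation of its library cannot be told apart. Results of 2 listed genes are not reported here.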

Additional observations from a re-analysis of the deposited data

Results flagged for a closer look

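Dbp in intact female 6 stood at 76.5 CPM, while the other 5 intact females were at 52.6 to 59.3 CPM, a gap above the Dixon critical value at 95%. Of 40 groups of values, 10 genes in 4 groups, this was the 1 case, and chance gives about 1 in 20. The same rat had the highest Nr1d2 (88.5 CPM) and the lowest Arntl (13.8 CPM) of the intact females. Without it Dbp in intact males against intact females had a log2 fold change of -0.64.

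The response of Dbp to gonadectomy was called as different between males and females in the test of the interaction, by 0.54 on the log2 scale (edgeR adjusted p = 0.0973). The call held in 6 of 22 fits that left out 1 rat, and was lost with fragment class (adjusted p = 0.113), RIN (0.113), the glucocorticoid-responsive level (0.179) or the meninges and fibroblast level (0.733) as a term, with a replicate block (0.172) and over short libraries (0.406). The log2 fold change was 0.25 after castration and -0.29 after ovariectomy, or -0.13 after ovariectomy with fragment class as a term, and Dbp stood at 43.4 ± 4.26 CPM (SD, n = 5) in GDX males and 49.1 ± 2.69 CPM (SD, n = 6) in OVX females.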

How the results depend on the processing

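The count of called clock genes in intact males against intact females, 9, was 9 with DESeq2, RLE factors, no filter, fragment class or RIN as a term and all 22 rats in 1 fit. It was 1 over the short-fragment libraries (4 rats), 0 with the meninges and fibroblast level and 3 with the glucocorticoid-responsive level as a term, and 7 to 9 with 1 rat left out. In GDX against intact males 2 were called, and 0 with fragment class, RIN, the meninges and fibroblast level or the glucocorticoid-responsive level as a term or over short libraries, and 0 to 2 with 1 rat left out. In OVX against intact females 0 were called, 2 by DESeq2, 1 with the meninges and fibroblast level (Arntl) and 0 to 1 with 1 rat left out. For the interaction, 1 was called, 3 by DESeq2, 2 with no filter, 0 with fragment class, RIN or either level as a term or over short libraries, and 0 to 3 with 1 rat left out. In GDX males against OVX females 0 were called, and 1 (Per1) with the meninges and fibroblast level. Between fragment classes 0 were called, and 1 with no filter. For co-variation, 2 ordered pairs were called, 0 over short libraries or with the glucocorticoid-responsive level, and 1 to 2 with 1 rat left out. The glucocorticoid-responsive genes called with Per1, 7, were 4 with fragment class as a term, 0 over short libraries and 4 to 7 with 1 rat left out. Fewer rats enter the short-library fits, and otherwise the cause was not tested.

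Directions turned in 7 cases. With fragment class as a term and over short libraries, the log2 fold change in OVX against intact females was 0.29 for Per1 under both, and for Per2 0.023 with the term and 0.019 over short libraries. Over short libraries Per2 stood at -0.10 in the interaction and Per1 at 0.0015 in intact males against intact females. With the meninges and fibroblast level Per3 stood at -0.037 in GDX against intact males.

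Counts over all genes moved more. They ran from 1 to 2395 around 1995 in GDX against intact males, 0 to 174 around 5 in OVX against intact females, 0 to 243 around 18 for the interaction, 18 to 820 around 599 in intact males against intact females, 24 to 349 around 35 in GDX males against OVX females and 0 to 210 around 1 between classes.

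The labels do not say whether rats of 1 number share anything else. Deviations of same-numbered rats correlated at -0.11 to 0.12 in 30 pairs, 1 of them over 0.1. In 151 pairs of other numbers they correlated at -0.18 to 0.14, with 5 over 0.1. These values run over all tested genes and cannot show a factor that acts on few genes. Whether same-numbered rats shared a day or hour was not tested. With the number as a replicate block, 1 clock gene was called in GDX against intact males, 0 for the interaction, 7 in intact males against intact females, 0 ordered pairs and 2 glucocorticoid-responsive genes. The spread of the 10 genes between rats had a median percentile among all genes of 51.8, and of 46.3 over short libraries.

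Depth limits Hlf and Ciart most, at 62 to 152 reads per library, and the SEs beside the results show the precision that groups of 5 or 6 rats give.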

Other observations

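Cell type lists were compared after gonadectomy too. Over all genes, 13.4% were called after castration and 0.0335% after ovariectomy. At an unadjusted p under 0.05 the shares were 23.8% and 10.2%. After castration 5 of 5 tested endothelial markers were called higher, among them Cdh5, which encodes VE-cadherin (log2 fold change 1.23 ± 0.15 SE), and Tek (0.49 ± 0.09 SE). After ovariectomy none was called by edgeR, and all 5 had an unadjusted p under 0.05, with a median of 0.49. Among 6 astrocyte markers Gfap (0.38 ± 0.06 SE) and Aqp4 (0.18 ± 0.04 SE) were called higher after castration. Of 6 oligodendrocyte markers Mbp was (0.17 ± 0.05 SE), and of 6 microglia markers none was, with 1 at an unadjusted p under 0.05. Haemoglobin genes were called higher after castration, Hbb by 1.45 ± 0.44 SE, and the root marker Prx was (1.07 ± 0.38 SE). After ovariectomy the 4 tested erythroid rows had an unadjusted p under 0.05 (median 0.87), and 0 were called. Of 8 motor neuron markers Slc18a3, the vesicular acetylcholine transporter gene, was called lower after castration (-0.43 ± 0.13 SE). After ovariectomy 7 of the 8 had an unadjusted p under 0.05 (median -0.35) and 0 were called, and the same list was higher in the long than in the short class of intact rats in 8 of 8 at an unadjusted p under 0.05 (median 0.39), 0 called. Among dorsal horn markers Calb2 was called lower after castration (-0.33 ± 0.06 SE) and higher in intact males than in intact females (0.21 ± 0.04 SE).

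Per1, whose likeness was looked up after its values were seen, had the highest r over 22 rats with Tnfrsf11a (0.90), Gpatch4 (0.89), Tob2 (0.86), Bcl2l1 (0.82) and Gpd1 (0.81) outside the lists.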
